A study of Solanum lycopersicum with 24 samples.

Results

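PIF1a, PIF1b, PIF3 and PIF4 are tomato genes of the phytochrome-interacting factors (PIFs), a group of basic helix-loop-helix transcription factors. They were found by gene identifier and are 4 of the 34688 genes in the deposited count table. The names follow these identifiers, since the deposited descriptions give only the protein family. All 4 passed the filter on low counts and were tested among 19620 genes.

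PIFs are known as repressors of light responses. They accumulate in darkness, and light-activated phytochromes bind them, block their activity and mark them for breakdown, so much of their control lies in the protein, which RNA sequencing does not measure. In Arabidopsis, PIF1 and PIF3 hold back chlorophyll and carotenoid genes in dark-grown seedlings, and PIF4 drives stem elongation in shade and warmth. In tomato fruit, PIF1a is known to bind the promoter of PSY1, the phytoene synthase gene of ripening fruit, and to repress it.

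RNA was sequenced from epicarp (skin) and mesocarp (flesh) of Solanum lycopersicum fruit labelled MT-Aft/atv/hp2. Aft and atv are known as fruit anthocyanin alleles, and hp2 as an allele of DET1, a repressor of light responses. All 8 groups carry these alleles, no group lacks them, and each group has 3 libraries. In each tissue the groups are fruit taken 0 d, 2 d or 5 d after a foil cover worn from anthesis for 30 d was removed, and control fruit that grew in light for 30 d. Darkness therefore cannot be told apart from the foil itself, nor light at 2 d and 5 d from the fruit's greater age. The labels give neither the hour of harvest nor separate plants or fruits for the replicates, so p-values here cover the spread between libraries, which may be technical.

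Assigned reads ran from 18402751 to 23197867 per library. The 0 d replicates differed most from each other: log CPM correlated at 0.871 to 0.937 within epicarp and 0.874 to 0.934 within mesocarp, against 0.952 to 0.985 in the other groups. Summed over 6 cuticle genes, epicarp at 0 d held 11100, 730 and 679 CPM in replicates 1, 2 and 3, and summed over 5 ripening genes it held 98.9, 201 and 2920 CPM. The cuticle sum did not separate the tissues in every library. It was at least 420 CPM in every epicarp library, but the highest mesocarp library, 0 d replicate 1, had 758 CPM. The other 0 d flesh libraries had 62.3 and 36.2 CPM. Of the cuticle genes, CD1, CD3 and GPAT6 overlapped between the tissues, while CD2, CER3 and CER6 were higher in every epicarp library. CD2 had 137 to 263 CPM in epicarp and 15.8 to 41.8 CPM in mesocarp. Reads of replicate 3 of mesocarp at 2 d and at 5 d were recovered from TPM, because their count columns share 1 name.

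Each of the 4 genes is listed as 1 interval on build SL4.0, introns included, that no other listed gene overlaps. PIF1a (Solyc09g063010.5) lies on the minus strand of chromosome 9 from 57010581 to 57020569, and PIF1b (Solyc06g008030.3) on the minus strand of chromosome 6 from 1882256 to 1886871. PIF3 (Solyc01g102300.3) lies on the plus strand of chromosome 1 from 83396425 to 83401006, and PIF4 (Solyc07g043580.4) on the plus strand of chromosome 7 from 57357601 to 57361314. Of the other family members, PIF7b and PIF8b had 0 reads in all 24 libraries, which allows up to 0.129 to 0.163 CPM per library by counting error alone. PIF7a had 6 reads, all in mesocarp at 5 d replicate 3, a recovered library.

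Levels of different genes were compared in TPM, which divides reads by the listed length. That length is 9989 bases for PIF1a and 3714 to 4616 bases for the others, so a long interval with introns lowers the TPM of PIF1a. PIF3 had the highest mean TPM of the 4 in all 8 groups and took 53.1% to 74.2% of their summed TPM in single libraries. Its mean ran from 58.2 ± 2.17 TPM in mesocarp at 2 d to 172 ± 11.7 TPM in epicarp at 5 d (SD, n = 3). PIF4 came next in every mesocarp group, with means of 23.8 to 39.5 TPM. In all, 16 of the 24 pairs of neighbours in these orders did not overlap between libraries.

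**Figure D1:**
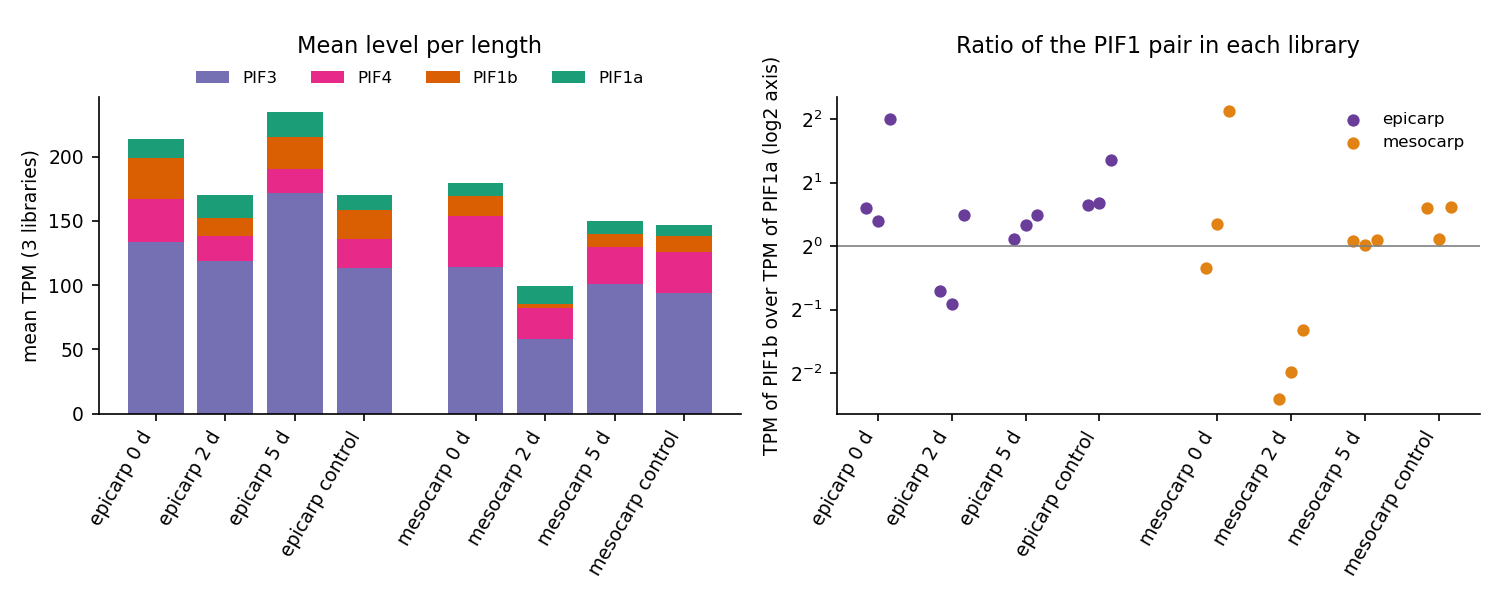
Mean TPM of the 4 PIF genes stacked by group (left; n = 3 libraries) and TPM of PIF1b over TPM of PIF1a in each library (right; log2 axis), with epicarp left of mesocarp. PIF3 fills most of each bar, and the ratio is lowest in mesocarp at 2 d (0.188 to 0.401) and highest in 0 d replicate 3 of each tissue (3.99 in epicarp and 4.36 in mesocarp).

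The balance of the PIF1 pair shifted between groups. Within mesocarp, the TPM of PIF1b over that of PIF1a ranged over 0.788 to 4.36 (0 d), 0.188 to 0.401 (2 d), 1.01 to 1.07 (5 d) and 1.08 to 1.54 (control fruit). Within epicarp it ranged over 1.31 to 3.99 (0 d), 0.531 to 1.4 (2 d), 1.08 to 1.4 (5 d) and 1.57 to 2.57 (control fruit). The mesocarp 2 d libraries thus lay below every other mesocarp group, while those of epicarp overlapped both 0 d and 5 d. The same ratio ranged most at 0 d, where replicate 3 of each tissue had the highest value. These ratios were not tested.

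PIF1a was measured in TMM-scaled CPM, like every within-gene value below, with the libraries of a group in the order replicates 1, 2 and 3. In epicarp it had 46.8, 72.3 and 40.2 CPM at 0 d, 75.9, 73.8 and 55.1 CPM at 2 d, 72.5, 79.0 and 69.4 CPM at 5 d, and 42.8, 45.4 and 39.2 CPM in control fruit. In mesocarp it had 51.2, 35.1 and 17.98 CPM at 0 d, 57.7, 49.6 and 53.5 CPM at 2 d, 29.9, 39.3 and 47.8 CPM at 5 d, and 31.7, 28.0 and 26.7 CPM in control fruit. Epicarp at 5 d and 2 d had the highest means and mesocarp control the lowest. Every group overlapped its neighbour in that order, and the 0 d groups spread most, with replicate 3 lowest in both tissues.

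PIF1b is the other PIF1-type gene. In epicarp it had 32.5, 43.6 and 74.0 CPM at 0 d, 21.4, 18.1 and 35.8 CPM at 2 d, 36.1, 46.1 and 44.9 CPM at 5 d, and 31.0, 33.7 and 46.5 CPM in control fruit. In mesocarp it had 18.7, 20.7 and 36.2 CPM at 0 d, 5.02, 5.84 and 9.91 CPM at 2 d, 14.6, 18.4 and 23.6 CPM at 5 d, and 22.2, 13.9 and 18.9 CPM in control fruit. Mesocarp at 2 d was the lowest group and lay wholly below the other 7. Each other group overlapped its neighbour in the order of means. In both tissues 0 d replicate 3, which had the lowest PIF1a level of its group, had the highest PIF1b level.

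PIF3 was the most abundant of the 4. In epicarp it had 232, 253 and 158 CPM at 0 d, 183, 222 and 218 CPM at 2 d, 296, 279 and 311 CPM at 5 d, and 171, 190 and 199 CPM in control fruit. In mesocarp it had 122, 218 and 210 CPM at 0 d, 105, 105 and 113 CPM at 2 d, 194, 172 and 172 CPM at 5 d, and 117, 167 and 134 CPM in control fruit. The 3 epicarp libraries at 5 d were above all 21 others, and the 3 mesocarp libraries at 2 d were below all of them. The 0 d groups again spread most, with the low library being replicate 3 in epicarp and replicate 1 in mesocarp.

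PIF4 had its highest levels at 0 d. In epicarp it had 49.5, 43.3 and 38.5 CPM at 0 d, 26.2, 27.4 and 26.8 CPM at 2 d, 27.6, 23.8 and 27.4 CPM at 5 d, and 35.7, 28.1 and 29.1 CPM in control fruit. In mesocarp it had 49.9, 52.2 and 51.9 CPM at 0 d, 40.3, 30.8 and 35.9 CPM at 2 d, 39.5, 37.9 and 47.0 CPM at 5 d, and 34.6, 41.8 and 38.5 CPM in control fruit. The mesocarp 0 d libraries were above those of every other group, and within epicarp the 0 d libraries were above those of the other 3 conditions. The epicarp 2 d and 5 d groups were lowest and overlapped each other.

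**Figure D2:**
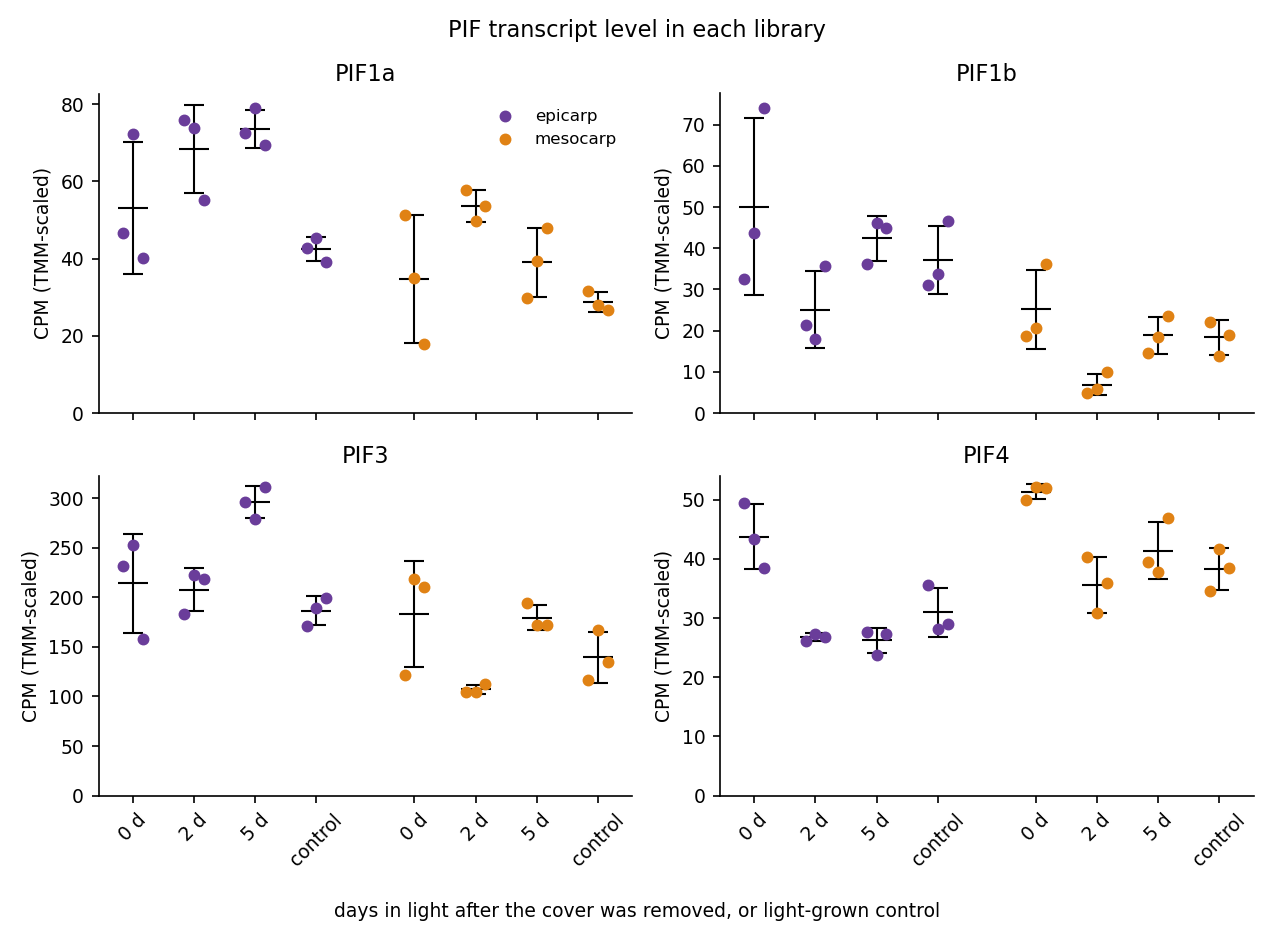
TMM-scaled CPM of each PIF gene in each of the 24 libraries (points, replicates 1 to 3 from left to right), with group means and SD (bars, n = 3), by condition, epicarp left of mesocarp. PIF4 is highest at 0 d in both tissues (means 43.8 and 51.3 CPM), PIF1b is lowest in mesocarp at 2 d (mean 6.92 CPM), and PIF3 is highest in epicarp at 5 d (mean 296 CPM).

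The comparison of 0 d with control fruit asks how the genes stood after growth under the cover. PIF4 was the one gene of the 4 that passed, and it rose in epicarp, to 43.8 ± 5.51 CPM at 0 d against 31.0 ± 4.11 CPM in control fruit (SD, n = 3 each). This was 1.41-fold, a log2 difference of 0.50 ± 0.13 (SE), with an adjusted p of 0.00958 in edgeR's quasi-likelihood test, and the libraries did not overlap. The count of 1 of 4 stands beside 19.1% of all tested genes called in this comparison, with 10.1% of all called higher at 0 d. The call was lost without epicarp 0 d replicate 1 (0.36, adjusted p = 0.0675), without control replicate 2 (0.40, adjusted p = 0.0893) and in a fit of just the compared groups (adjusted p = 0.11).

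In mesocarp 0 of the 4 passed between 0 d and control fruit, where 4.3% of all genes did. PIF4 came nearest, with 51.3 ± 1.26 CPM at 0 d against 38.3 ± 3.58 CPM in control fruit, groups that did not overlap (log2 difference 0.42 ± 0.13, edgeR adjusted p = 0.0613), and it passed in DESeq2 (adjusted p = 0.0284). It was also the 1 gene of the 4 with an unadjusted p under 0.05. PIF1a, PIF1b and PIF3 differed by 0.27 ± 0.27, 0.46 ± 0.34 and 0.40 ± 0.19, with overlapping libraries in each. Without 0 d replicate 1, PIF3 passed at 0.63 (adjusted p = 0.0281) and PIF1a stood at -0.11. Seed genes summed to 9.83 to 16.2 CPM at 0 d against 73.6 to 133 CPM in control mesocarp, and their part in these values was not tested.

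Epicarp PIF1a, PIF1b and PIF3 differed between 0 d and control fruit by 0.32 ± 0.27, 0.43 ± 0.34 and 0.20 ± 0.19, all with overlapping libraries. The PIF1a value rested on 0 d replicate 2 and was -0.01 without it. All 5 tested ripening genes were called higher in epicarp at 0 d than in control fruit, beside 10.1% of all genes. Their sums were 98.9 to 2920 CPM at 0 d against 17.9 to 30.0 CPM in control fruit. The libraries of PG2a, NOR, ACS2 and ACO1 overlapped, and the count was 1 without 0 d replicate 3 or any 1 control library and 0 in a fit of just the compared groups. Their part in the PIF values was not tested, and in bulk tissue fewer cells of a type cannot be told apart from less RNA per cell.

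The comparison of 2 d with 0 d follows the first days of light, and the PIF genes called here were all lower at 2 d. PIF4 fell in both tissues and PIF1b in both, while PIF3 fell in mesocarp and PIF1a passed in neither. In epicarp 2 of the 4 were lower and 0 higher, beside 36.7% of all genes called, 19% lower. In mesocarp 3 of the 4 were lower and 0 higher, beside 24.1% called, 10.8% lower. The 4 genes' median log2 difference was -0.38 in epicarp and -0.65 in mesocarp, against -0.07 and -0.05 over all genes. Markers moved too: 4 of 6 cuticle and 2 of 5 ripening genes were lower at 2 d in epicarp, with cuticle sums of 420 to 506 CPM at 2 d against 679 to 11100 CPM at 0 d. The libraries of CD1, CD3 and GPAT6 overlapped. The cuticle count was 0 without 0 d replicate 1 or 2 d replicate 3 and 1 without 2 d replicate 1 or 2, and the ripening count was 0 without 0 d replicate 3 or any 1 of the 2 d libraries. In mesocarp 2 of 6 cuticle genes were lower at 2 d, 1 without 0 d replicate 1 or any 1 of the 2 d libraries and 4 without 0 d replicate 3, and 0 of 5 ripening genes passed in edgeR (1 in DESeq2). Seed genes there summed to 27.5 to 35.6 CPM at 2 d against 9.83 to 16.2 CPM at 0 d. Their part in the PIF differences was not tested.

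PIF1b had the largest of these differences. It fell to 6.92 ± 2.62 CPM in mesocarp at 2 d, against 25.2 ± 9.61 CPM at 0 d, a 3.65-fold difference with no overlap (log2 -1.87 ± 0.35, edgeR adjusted p = 0.000755). This call held in all 16 alternatives, those without 0 d replicate 3 or the recovered 2 d library included. In epicarp it fell to 25.1 ± 9.4 CPM at 2 d, against 50.1 ± 21.5 CPM at 0 d, with overlapping libraries (-0.996 ± 0.339, adjusted p = 0.0277). The epicarp call was lost without 0 d replicate 3, the library with the ripening sum of 2920 CPM (-0.60, adjusted p = 0.176), without 2 d replicate 1 (adjusted p = 0.102) or 2 (adjusted p = 0.126), and in a fit of just the compared groups (adjusted p = 0.106).

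PIF4 fell to 26.8 ± 0.60 CPM in epicarp at 2 d, against 43.8 ± 5.51 CPM at 0 d, with no overlap (log2 -0.71 ± 0.13, edgeR adjusted p = 0.000241). This call held in all 15 alternatives. In mesocarp it fell to 35.7 ± 4.73 CPM at 2 d, against 51.3 ± 1.26 CPM at 0 d, again with no overlap (-0.53 ± 0.13, adjusted p = 0.00481). PIF3 fell to 107 ± 4.61 CPM in mesocarp at 2 d, against 183 ± 53.2 CPM at 0 d, with no overlap (-0.77 ± 0.19, adjusted p = 0.00581). Both of these mesocarp calls were lost in a fit of just the compared groups (adjusted p = 0.0646 for PIF4 and 0.0782 for PIF3). In epicarp PIF3 stood at 208 ± 21.7 CPM at 2 d and 214 ± 49.8 CPM at 0 d (-0.04 ± 0.19), a sign that turned without 0 d replicate 1 or 2 or without 2 d replicate 1.

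PIF1a was the one gene with positive differences between 2 d and 0 d, at 0.36 ± 0.27 in epicarp and 0.63 ± 0.27 in mesocarp (edgeR adjusted p = 0.306 and 0.0992). Neither passed, and the libraries overlapped in both tissues. Without mesocarp 0 d replicate 1, whose 51.2 CPM was the highest of its group, the mesocarp difference was 1.03 (adjusted p = 0.00862). That library also held the highest cuticle sum of the mesocarp, 758 CPM, against 62.3 and 36.2 CPM in 0 d replicates 2 and 3 and 29.8 to 34.0 CPM at 2 d. Its part in the PIF1a value was not tested.

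The comparisons of 5 d with 0 d and of 5 d with 2 d show which differences lasted. PIF4 stayed low in epicarp, at 26.2 ± 2.1 CPM at 5 d against 43.8 ± 5.51 CPM at 0 d (log2 -0.74 ± 0.13, edgeR adjusted p = 0.000235). This was the 1 call of the 4 genes in epicarp, beside 28.5% of all genes called and 14.2% called lower, and it held in all 15 alternatives. Epicarp PIF3 differed by 0.46 ± 0.19 with no overlap (adjusted p = 0.0742) and passed without 0 d replicate 2 (0.63, adjusted p = 0.0368), while PIF1a and PIF1b differed by 0.47 ± 0.27 and -0.24 ± 0.34 with overlapping libraries. In mesocarp 0 of 4 passed, beside 19.2% of all genes. PIF4 there differed by -0.31 ± 0.13 (adjusted p = 0.0944; DESeq2 called none of the 4), with non-overlapping libraries, and was the 1 gene of the 4 with an unadjusted p under 0.05. It passed with upper-quartile scaling (adjusted p = 0.0336) and on the log2(TPM + 1) scale (adjusted p = 0.0147).

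Between 5 d and 2 d, PIF1b and PIF3 rose in mesocarp. PIF1b rose to 18.9 ± 4.54 CPM at 5 d, against 6.92 ± 2.62 CPM at 2 d (log2 1.45 ± 0.35, edgeR adjusted p = 0.0326). PIF3 rose to 179 ± 12.6 CPM at 5 d, against 107 ± 4.61 CPM at 2 d (0.74 ± 0.19, adjusted p = 0.0423). Neither gene's libraries overlapped, and these 2 of 4 stand beside 2.51% of all genes called and 1.07% called higher. Marker sums differed too: ripening genes summed to 448 to 933 CPM at 5 d against 1270 to 2330 CPM at 2 d. Most of that sum was E8, with means of 729.5 CPM at 5 d and 1778 CPM at 2 d. In edgeR 0 of the 5 ripening genes passed here. NOR and PG2a had higher means at 5 d, and ACS2 and ACO1 lower means. Vascular genes summed to 46.1 to 54.7 CPM at 5 d against 66.5 to 95.2 CPM at 2 d. The part of these markers in the PIF rises was not tested.

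Without any 1 of the 6 libraries PIF3 did not pass, at 0.70 to 0.80 (adjusted p = 0.0845 to 0.132). The PIF1b call was lost without 2 d replicate 1 or 2 or without 5 d replicate 2 or 3, at 1.25 to 1.497 (adjusted p = 0.0741 to 0.146). Without both recovered libraries PIF1b stood at 1.62 (adjusted p = 0.0774) and PIF3 at 0.83 (adjusted p = 0.146).

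In epicarp 0 of 4 passed between 5 d and 2 d in edgeR and 0 in DESeq2, beside 3.27% of all genes in edgeR. PIF1b (0.76 ± 0.34, edgeR adjusted p = 0.244) and PIF3 (0.51 ± 0.19, adjusted p = 0.156) had non-overlapping libraries and an unadjusted p under 0.05. With replicate numbers fitted as a block PIF1b passed (0.82, edgeR adjusted p = 0.042). Between these groups, deviations of same-numbered libraries from their group means correlated at r of 0.0561 to 0.145. Not every pair was over 0.1, the cut used here for pairing. PIF3 passed in a fit of just the compared groups (adjusted p = 0.0224).

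Against control fruit, PIF3 was higher in epicarp at 5 d, at 296 ± 16.2 CPM against 187 ± 14.4 CPM in control fruit, with no overlap (log2 0.66 ± 0.19, edgeR adjusted p = 0.0246). It was the 1 call of 4 there, beside 14.9% of all genes called and 8.42% called higher. The call was lost without any 1 of the 5 d libraries or without control replicate 1 or 2 (adjusted p = 0.0563 to 0.112). PIF1a had 73.7 ± 4.9 CPM at 5 d against 42.4 ± 3.11 CPM in control fruit, with no overlap (0.80 ± 0.27, adjusted p = 0.0524). It passed in DESeq2 (adjusted p = 0.0375), in a fit of just the compared groups (adjusted p = 0.0019) and with the replicate block (adjusted p = 0.0468). In mesocarp 0 of the 4 passed between 5 d and control fruit, and 0 had an unadjusted p under 0.05, beside 20.3% of all genes called in edgeR, and DESeq2 called 0 as well.

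**Figure D3:**
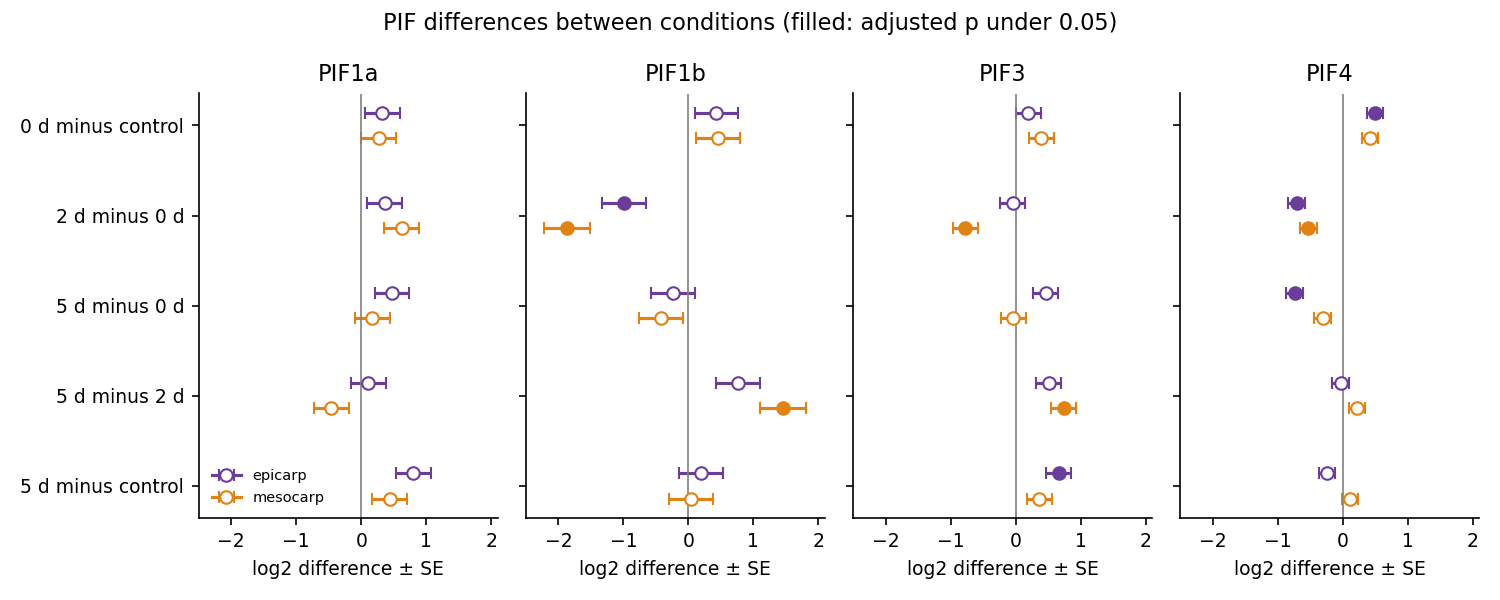
Log2 difference ± SE of each PIF gene (panels) in 5 comparisons of conditions within epicarp (purple, upper point) and mesocarp (orange, lower point), from the edgeR fit of all 24 libraries. Filled points have an adjusted p under 0.05: PIF4 and PIF1b are filled below 0 at 2 d minus 0 d in both tissues, and PIF1b and PIF3 are filled above 0 at 5 d minus 2 d in mesocarp.

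The comparison of epicarp with mesocarp within a condition asks where in the fruit each gene was expressed. PIF1b was higher in epicarp in all 4 conditions, PIF3 at 2 d and 5 d, and PIF1a at 5 d. PIF4 went the other way and was lower in epicarp at 2 d and 5 d. At 5 d all 4 genes differed, 3 higher and 1 lower, beside 17.5% of all genes called, 7.12% higher and 10.4% lower. At 2 d 2 were higher and 1 lower, beside 18.5% called, 8.2% higher and 10.3% lower. PIF1b was the 1 gene called at 0 d, beside 18.3% called and 8.78% higher, and the 1 called in control fruit, beside 26.8% called and 13.2% higher.

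PIF1b differed most between the tissues at 2 d, with means of 25.1 ± 9.4 CPM (epicarp) and 6.92 ± 2.62 CPM (mesocarp), 3.63-fold apart (log2 1.86 ± 0.36, edgeR adjusted p = 0.0011) that held in all 17 alternatives. At 5 d it had 42.4 ± 5.45 CPM in epicarp and 18.9 ± 4.54 CPM in mesocarp (1.17 ± 0.34, adjusted p = 0.0237). In control fruit it had 37.1 ± 8.29 CPM in epicarp and 18.4 ± 4.19 CPM in mesocarp (1.01 ± 0.34, adjusted p = 0.0332). At 0 d the 50.1 ± 21.5 CPM of epicarp and 25.2 ± 9.61 CPM of mesocarp overlapped (0.99 ± 0.34, adjusted p = 0.0486).

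These PIF1b calls differ in how far they held. The 0 d call lay close to the threshold and passed in 6 of 16 alternatives. It was lost in most of the settings that left out no library, so single libraries are not its only limit. Without epicarp 0 d replicate 3 it stood at 0.59 (adjusted p = 0.23). Without any 1 of the other libraries that ended it, epicarp replicate 2 and mesocarp replicates 1 and 2, its adjusted p was 0.0733 to 0.155. The control call was lost without epicarp replicate 3 or mesocarp replicate 2 or 3 (adjusted p = 0.0638 to 0.133), and on the TPM scales (adjusted p = 0.0649 and 0.0706). The 5 d call was lost without epicarp replicate 2 or 3 or mesocarp replicate 1 or 2 (adjusted p = 0.0611 to 0.0966).

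PIF3 at 2 d had 208 ± 21.7 CPM in epicarp and 107 ± 4.61 CPM in mesocarp (log2 0.95 ± 0.19, edgeR adjusted p = 0.00161), a call that held in all 17 alternatives. At 5 d it had 296 ± 16.2 CPM in epicarp and 179 ± 12.6 CPM in mesocarp (0.72 ± 0.19, adjusted p = 0.0129), lost without mesocarp replicate 2 (adjusted p = 0.0533) or without both recovered libraries (adjusted p = 0.0606). In control fruit the difference was 0.42 ± 0.19 (adjusted p = 0.109) and passed without mesocarp replicate 2 (adjusted p = 0.0455). At 0 d it was 0.22 ± 0.19, with overlap, and -0.01 without mesocarp replicate 1.

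PIF4 at 5 d had 26.2 ± 2.1 CPM in epicarp and 41.4 ± 4.87 CPM in mesocarp (log2 -0.66 ± 0.13, edgeR adjusted p = 0.00131), which held in all 17 alternatives. At 2 d it had 26.8 ± 0.60 CPM in epicarp and 35.7 ± 4.73 CPM in mesocarp (-0.41 ± 0.13, adjusted p = 0.0285), which held in 9 of 17. The 2 d call was lost without any 1 epicarp library or without mesocarp replicate 1 or 3 (adjusted p = 0.0752 to 0.176), and on the TPM scales. Control and 0 d fruit had differences of -0.31 ± 0.13 and -0.23 ± 0.13 that did not pass in edgeR. The control value passed in 3 of 16 alternatives, upper-quartile scaling among them (adjusted p = 0.0423). Leaving out any 1 library did not make it pass (lowest edgeR adjusted p = 0.0596). PIF1a passed at 5 d, with 73.7 ± 4.9 CPM in epicarp and 39.0 ± 8.99 CPM in mesocarp (0.92 ± 0.27, adjusted p = 0.0242), a call lost without any 1 epicarp library or without mesocarp replicate 1 or 2 (adjusted p = 0.0508 to 0.125).

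The other PIF1a differences between tissues were 0.61 ± 0.27 at 0 d, 0.35 ± 0.27 at 2 d and 0.56 ± 0.27 in control fruit, none past the threshold in edgeR. The 0 d value passed with a replicate block per condition (0.69, adjusted p = 0.035) and without mesocarp replicate 1 (0.99, adjusted p = 0.0157). The control value passed in a fit of just the compared groups (adjusted p = 0.00948). Cuticle genes moved with all these tissue comparisons: 6 of 6 were higher in epicarp control fruit, 3 of 6 at 0 d, 3 of 6 at 2 d and 5 of 6 at 5 d. The shares of all genes called higher were 13.2% (control), 8.78% (0 d), 8.2% (2 d) and 7.12% (5 d). Genes of sieve element occlusion, which mark vascular tissue, summed to a median of 20.5 CPM in epicarp and 76.9 CPM in mesocarp at 2 d. Seed genes summed to a median of 19.1 CPM in epicarp and 10.3 CPM in mesocarp at 0 d, and in control fruit to 20.4 CPM in epicarp and 116 CPM in mesocarp. The part of these marker lists in the PIF differences was not tested.

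**Figure D4:**
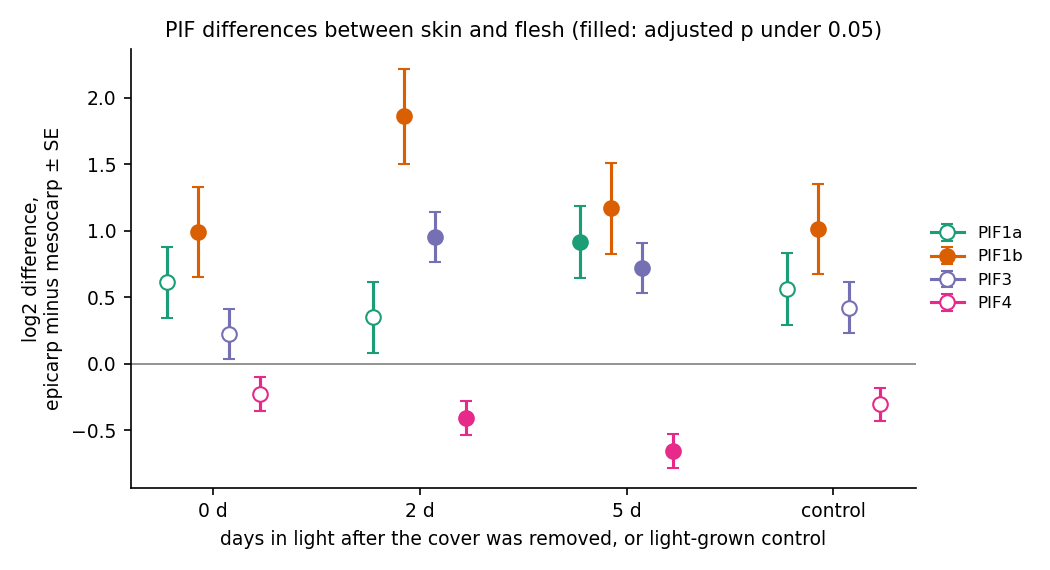
Log2 difference of epicarp minus mesocarp ± SE for each PIF gene at 0 d, 2 d and 5 d of light and in control fruit, from the edgeR fit of all 24 libraries, with filled points past an adjusted p of 0.05. PIF1b is filled in all 4 conditions (0.99, 1.86, 1.17 and 1.01), and PIF4 is the one gene below 0 in all 4.

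Whether a condition effect differed between the tissues was tested directly, by subtracting the effect in mesocarp from that in epicarp. Of 12 such values for the 4 genes, 0 passed in edgeR and 0 in DESeq2, beside 2.56%, 1.24% and 0.973% of all genes for 0 d minus control, 2 d minus 0 d and 5 d minus control. The PIF3 difference between 2 d and 0 d was the 1 value with an unadjusted p under 0.05, at 0.73 ± 0.27 (edgeR adjusted p = 0.207). It passed without mesocarp 0 d replicate 1 (0.95, adjusted p = 0.0449). The PIF1b value for the same interval was 0.87 ± 0.48 (adjusted p = 0.423) and passed with a replicate block per condition (0.89, adjusted p = 0.0473). The fall of PIF3 in mesocarp and the absence of a call in epicarp are thus not shown to differ.

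Phytochromes, the red-light receptors that act on PIF proteins, moved in both directions at 2 d. PHYB2 was lower at 2 d than at 0 d in both tissues, with 19.97 CPM at 2 d against 66.8 CPM at 0 d in epicarp (log2 -1.74 ± 0.25, edgeR adjusted p = 2.66e-05) and 31.7 CPM against 60.5 CPM in mesocarp (-0.93 ± 0.25, adjusted p = 0.00906). PHYB1 fell in epicarp (-0.66 ± 0.14, adjusted p = 0.00107), and PHYA rose in mesocarp (0.72 ± 0.22, adjusted p = 0.0219). Of the 5 genes, 2 were lower and 0 higher in epicarp, and 1 was lower and 1 higher in mesocarp. All tested genes stood at 36.7% called in epicarp (17.6% higher, 19% lower) and 24.1% in mesocarp (13.3% higher, 10.8% lower). The epicarp phytochrome count is near its share. The mesocarp count of 2 called was 1 without 0 d replicate 1 or 2 or 2 d replicate 1 or 3 and 0 in a fit of just the compared groups. The 5 genes' median was 0.00 in epicarp and 0.24 in mesocarp, against -0.07 and -0.05 over all genes.

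HY5, a transcription factor that promotes light responses and is known in Arabidopsis to share target sites with PIFs, was higher at 0 d than in control fruit in both tissues. It averaged 96.7 CPM at 0 d against 23.2 CPM in control epicarp (log2 2.06 ± 0.65, edgeR adjusted p = 0.0323) and 41.5 CPM against 7.05 CPM in mesocarp (2.56 ± 0.67, adjusted p = 0.036). Libraries overlapped in both, and each call passed in 5 of 15 alternatives. At 2 d HY5 fell in epicarp (-2.48 ± 0.66, adjusted p = 0.00645), though its 12.6 to 21.8 CPM at 2 d overlapped the 13.98 to 178 CPM at 0 d. A COP1-like gene, related to the ubiquitin ligase that marks HY5 for breakdown, was higher at 2 d than at 0 d in epicarp (3.04 ± 0.58) and mesocarp (3.46 ± 0.59). Of the 6 genes of HY5 and its repressors, 3 were higher and 1 lower in epicarp, and 2 were higher and 0 lower in mesocarp, with medians of 0.21 and 0.24. Beside these counts stand 36.7% of all genes called in epicarp and 24.1% in mesocarp. The epicarp count of 4 called was 2 on the TPM scales, and the mesocarp count of 2 was 1 without 0 d replicate 2 or 2 d replicate 1; a fit of just the compared groups called 2 in epicarp and 1 in mesocarp.

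Chlorophyll and carotenoid enzymes, genes of the kind PIFs repress in Arabidopsis seedlings, rose at 2 d. Of 10, 7 were higher and 0 lower than at 0 d in each tissue, with median log2 differences of 1.47 in epicarp and 1.42 in mesocarp. Over all genes, 17.6% were called higher in epicarp and 13.3% in mesocarp. At 5 d against 0 d, 7 of the 10 enzymes were also higher in each tissue, beside 14.3% of all genes in epicarp and 11.1% in mesocarp. The enzyme count was 3 in mesocarp in a fit of just the compared groups. GUN4, which assists magnesium insertion into chlorophyll precursors, had 53.0 CPM at 2 d against 4.39 CPM at 0 d in epicarp (3.59 ± 0.42, edgeR adjusted p = 3.49e-06) and 56.5 CPM against 14.6 CPM in mesocarp (1.95 ± 0.39, adjusted p = 0.0012). PSY2, the phytoene synthase of green tissue, rose by 2.84 ± 0.24 in epicarp and 2.17 ± 0.23 in mesocarp.

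At 0 d against control fruit, 6 of the 10 pigment enzymes were lower in epicarp. In mesocarp 0 passed in either direction, where DESeq2, log2(TPM + 1) and leaving out 0 d replicate 1 each called 1. Beside these counts stand 9.08% of all genes called lower in epicarp, and in mesocarp 2.4% called higher and 1.9% lower. The enzymes' medians had opposite signs, -0.86 in epicarp and 0.75 in mesocarp, against 0.04 and 0.01 over all genes. The effect in epicarp minus that in mesocarp was called lower for 4 of the 10, beside 1.82% of all genes. That count was 0 to 5 in the alternatives. The epicarp enzyme count was 1 in a fit of just the compared groups. GUN4 was at 4.39 CPM at 0 d against 13.5 CPM in control epicarp (-1.62 ± 0.40, edgeR adjusted p = 0.00879), and CHLI, a subunit of magnesium chelatase, differed by -1.17 ± 0.28 (adjusted p = 0.00599). PSY1, named here after its values were seen because PIF1a is known to bind its promoter, did not pass in any of the 17 comparisons. Between 2 d and 0 d it differed by 0.67 in epicarp (edgeR adjusted p = 0.415), with 29.7 to 216.2 CPM at 0 d and 156.1 to 165.8 CPM at 2 d. In mesocarp it had 54.45 to 415.4 CPM at 0 d and 254.6 to 270.5 CPM at 2 d. The wide spread at 0 d in both tissues limits what the absence of a PSY1 call can show.

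Among DELLA and gibberellin receptor genes, whose proteins restrain or release PIFs in Arabidopsis, PROCERA, the tomato DELLA, was lower at 2 d than at 0 d in epicarp (-0.50 ± 0.18, edgeR adjusted p = 0.032) and mesocarp (-0.55 ± 0.18, adjusted p = 0.0292). The gibberellin receptor GID1b2 was higher at 2 d in epicarp (1.06 ± 0.33, adjusted p = 0.0166). Of 5 hormone genes, which also include BZR1, a transcription factor of brassinosteroid signalling, 2 were higher and 1 lower in epicarp, and 0 were higher and 1 lower in mesocarp, with medians of -0.34 and -0.05. Beside these counts stand 36.7% of all genes called in epicarp and 24.1% in mesocarp, and the mesocarp count is near its share. The epicarp count of 3 called was 0 without 0 d replicate 2 and 1 without 2 d replicate 1 or 3. The mesocarp count of 1 was 0 without 0 d replicate 1 or 2, without 2 d replicate 1 or in a fit of just the compared groups.

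Clock genes, some of which control PIF4 and PIF5 transcription in Arabidopsis, also differed at 2 d. Of 12, 1 was higher and 6 lower than at 0 d in epicarp, and 1 was higher and 2 lower in mesocarp, with medians of -0.38 and -0.11. All tested genes stood at 36.7% called in epicarp (17.6% higher, 19% lower) and 24.1% in mesocarp (13.3% higher, 10.8% lower). The mesocarp clock count is near its share. The epicarp count of 7 called was 4 in a fit of just the compared groups, and the mesocarp count of 3 was 7 without 0 d replicate 1. The pseudo-response regulator gene Solyc03g081240.3 had 3.07 CPM at 2 d against 49.1 CPM at 0 d in epicarp (log2 -3.99 ± 0.42, edgeR adjusted p = 8.46e-07) and 12.7 CPM against 59.0 CPM in mesocarp (-2.22 ± 0.38, adjusted p = 0.0003). LUX, part of the evening complex that represses PIF4 in Arabidopsis, was lower at 2 d in both tissues, as PIF4 was. It had a mean of 0.0491 CPM in epicarp and 0.598 CPM in mesocarp, against 3.75 CPM and 6.02 CPM at 0 d. The epicarp mean at 2 d lies below the 0.129 to 0.163 CPM that 0 reads allow by counting error. Since the hour of harvest is not given, time of day and days of light cannot be told apart in these genes.

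**Figure D5:**
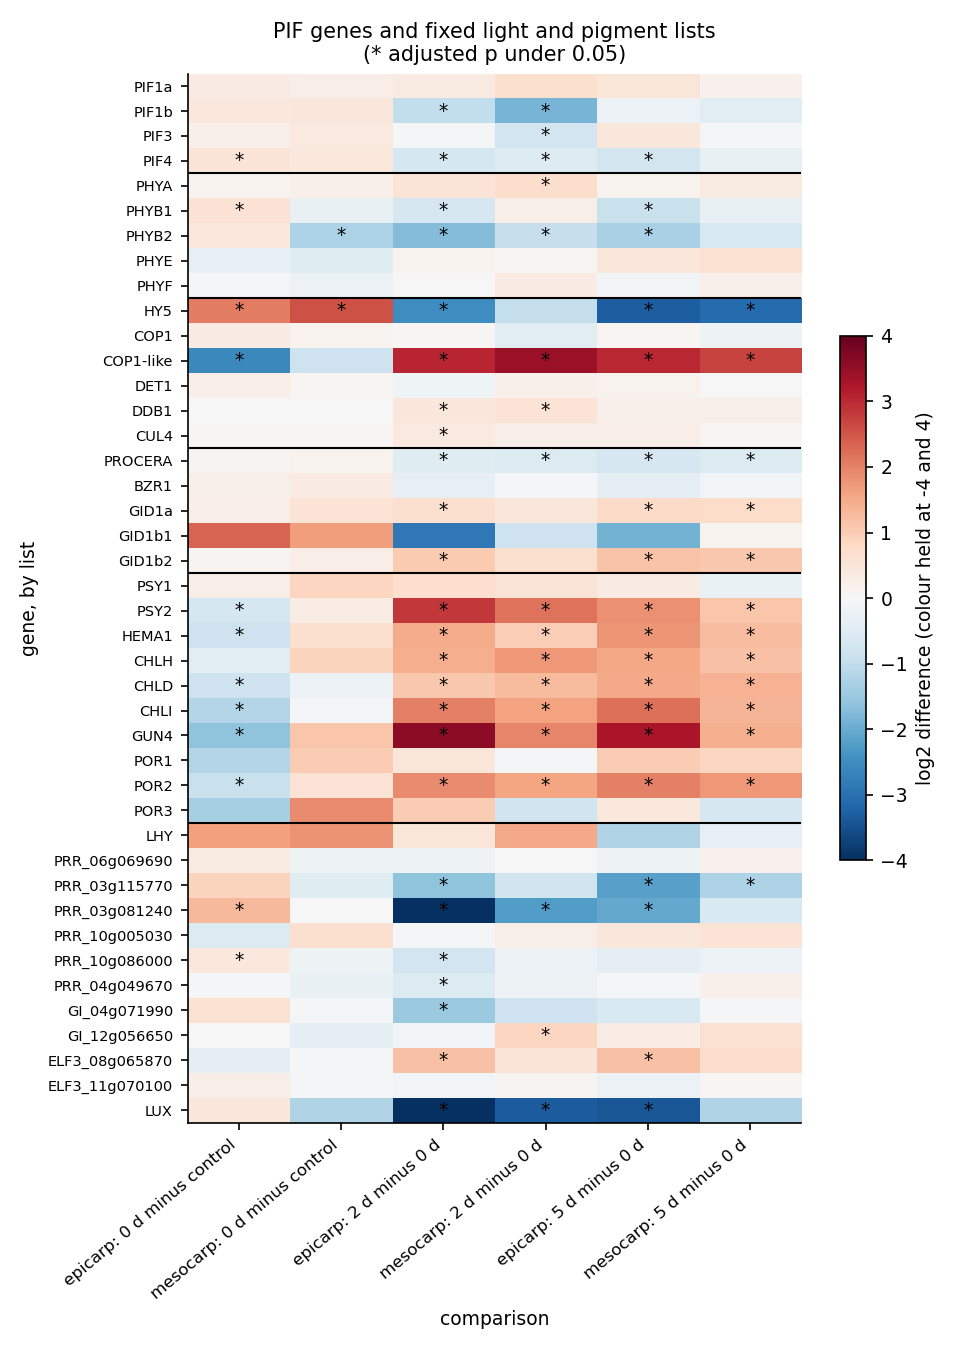
Log2 differences of the 4 PIF genes (top) and of phytochrome, HY5, hormone, pigment enzyme and clock genes (blocks below) in 6 comparisons, epicarp left of mesocarp in each pair; red is higher and blue lower in the group named first, colours are held at -4 and 4, and stars mark an edgeR adjusted p under 0.05. At 2 d minus 0 d, PIF1b and PIF4 are blue with stars in both tissues, while 7 of 10 pigment enzymes are red with stars.

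Genes with a pattern most like each PIF were found by Pearson correlation of log2 CPM over the 24 libraries, which share 8 groups, so the values are descriptions with no test. For PIF1a the nearest were a vacuolar acid trehalase gene (Solyc05g055550.3, r = 0.861), an S-acyltransferase gene (Solyc05g016030.3, 0.842) and GATA transcription factor 8 (Solyc11g069510.3, 0.837). For PIF1b the nearest was an aspartic proteinase gene (Solyc05g051240.1, 0.894). For PIF3 they were Squamosa promoter binding protein 7 (Solyc01g080670.3, 0.881) and a WRKY transcription factor gene (Solyc12g014610.2, 0.855). For PIF4 they were an RNA-binding protein gene (Solyc10g006050.3, 0.888) and a protein phosphatase 2C gene (Solyc08g077150.3, 0.867). Without the 6 libraries at 0 d the first-named gene of each had r = 0.913, 0.903, 0.914 and 0.853 with PIF1a, PIF1b, PIF3 and PIF4. These genes were picked over the same libraries, so high values over part of them add no separate evidence. In the same order, Spearman values over the 24 libraries were 0.791, 0.808, 0.729 and 0.891.

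The 4 PIF genes themselves did not follow 1 pattern. Over the 24 libraries PIF1b and PIF3 had the highest correlation of any pair (Pearson 0.70, Spearman 0.62), and within the 12 mesocarp libraries it was 0.68, but within the 12 epicarp libraries 0.03. Within mesocarp PIF4 also went with PIF3 (Pearson 0.65) and PIF1b (0.60), against -0.23 and 0.24 within epicarp. PIF1a and PIF3 stood at 0.67 within epicarp and -0.63 within mesocarp. PIF1a and PIF4 were negatively correlated over all 24 (Pearson -0.57). PIF1a and PIF1b stood at 0.07 over all 24 libraries, -0.38 within epicarp and -0.66 within mesocarp. Libraries of a pair share their depth scaling and their group, and these values carry no test.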

How the data were processed

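The authors deposited whole counts of reads per gene, from featureCounts, per the submitters' processing notes, which also name Trimmomatic 0.39 and DESeq2. The sources used here name no aligner and no strand setting. Reads were 150-base pairs, per the labels' protocols. A second deposited file gives TPM values of the authors for 34689 genes. Among the count columns a single name heads 2, and no name stands for mesocarp at 5 d replicate 3, so this pair was left out. For both libraries the reads were rebuilt as TPM times the deposited gene length over the value of 1 read, with 100.0% of genes whole to within 0.01. Applied to the other 22 libraries, this returned the deposited count of each of the 34688 genes.

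Testing used edgeR 4.0.16 in R 4.3.3 (TMM scaling, filterByExpr by group, a robust quasi-likelihood fit of the 8 group means, 19620 genes, common dispersion 0.119). For each of 17 contrasts p-values were adjusted by Benjamini-Hochberg over all genes, with a threshold of 0.05. Alternatives used DESeq2 1.42.0, limma 3.58.1 on TPM, other scalings and filters, a replicate block and leaving out libraries. Comparisons with 0 d share its libraries, as those with control fruit share theirs. The edgeR steps were also run on simulated counts with the same dispersion for every gene and group. That setting lacks the wider spread of the 0 d libraries, so it does not show how calls with 0 d hold. Tables and figures came from Python 3.11.15, pandas 2.3.3, numpy 2.4.6 and matplotlib 3.10.9.

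Depth was 18402751 to 23197867 reads per library, so 0 reads allows up to 3, or 0.129 to 0.163 CPM. The floor covers counting error only. Replicate numbers were taken to pair samples where every same-numbered pair correlated over 0.1 in its deviations from the group means. This held between the tissues at 0 d (r of 0.385 to 0.644), at 2 d (r of 0.124 to 0.171) and at 5 d (r of 0.194 to 0.305), but neither in control fruit nor between conditions. The block per condition was chosen after seeing the data.

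The members and lists were chosen with earlier results of these data known. The 4 PIF genes are named in any contrast. Of each other list, at most 4 genes are named per contrast, those past the threshold with the largest differences. For likeness, genes of at least 10 CPM with the highest correlation are named. For PIF1b, 1 gene among these is not reported here. The RIN and PIF8a identifiers matched no gene of the table and are not analysed here.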

Additional observations from a re-analysis of the deposited data

How the results depend on the processing

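Of the 19 PIF calls, 6 held in every alternative run: PIF1b and PIF3 between tissues at 2 d, PIF4 between tissues at 5 d, PIF1b between 2 d and 0 d in mesocarp, and PIF4 in epicarp between 2 d and 0 d and between 5 d and 0 d. Over the 19, 246 of 306 alternatives kept the call, 60 lost it and 0 turned the sign. Leaving out 1 library moved the calls between conditions from 10 to between 7 and 14, those between tissues from 9 to between 5 and 10, and those of the tissue difference of an effect from 0 to between 0 and 1. Leaving out 1 replicate number in all 8 groups at once moved the level neighbours without overlap from 16 to between 18 and 20. For an unchanged order, fewer libraries can only keep or raise this count, so it does not test the order. The replicate block per condition gave 1 call of a tissue difference of an effect, and changed the 0 d tissue difference of PIF1a. The replicate number as a block changed 2 calls, epicarp PIF1b between 5 d and 2 d and PIF1a between 5 d and control fruit. The causes were not tested.

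Signs turned only in values that were not called. For 5 d minus control in mesocarp, PIF1b stood at -0.066 with upper-quartile scaling, -0.20 and -0.22 with limma on log2(TPM + 1) and log2(TPM + 0.1), -0.012 with the replicate block and -0.16 without both recovered libraries, and PIF4 at -0.14 and -0.15 on those TPM scales, where the median of all genes also shifted by up to 0.24. PIF1a at 5 d minus 0 d in mesocarp was -0.021 without both recovered libraries. For the tissue difference at 0 d minus control, PIF1a was -0.005 with no filter on low counts and -0.003 with 1 CPM in 3 libraries, and PIF1b was 0.12 on both TPM scales and 0.015 with the replicate block.

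Leaving out 1 library gave these ranges. In epicarp, PIF1a ran from -0.013 to 0.47 for 0 d minus control and from -0.011 to 0.20 for 5 d minus 2 d, PIF3 from -0.22 to 0.12 for 2 d minus 0 d, PIF1b from -0.43 to 0.17 for 5 d minus 0 d, and PIF4 from -0.073 to 0.038 for 5 d minus 2 d. In mesocarp, PIF1a ran from -0.11 to 0.61 for 0 d minus control and from -0.16 to 0.56 for 5 d minus 0 d, PIF3 from -0.25 to 0.10 for 5 d minus 0 d, and PIF1b from -0.16 to 0.20 for 5 d minus control. PIF3 between tissues at 0 d ran from -0.011 to 0.40. For tissue differences of an effect, 0 d minus control ran from -0.32 to 0.40 in PIF1a, -0.46 to 0.27 in PIF1b and -0.085 to 0.14 in PIF4, 2 d minus 0 d from -0.65 to 0.10 in PIF1a, and 5 d minus control from -0.006 to 0.35 in PIF1b. Levels per coding length were not run, because no protein lengths were at hand. Depth limits little here, since the PIF genes had at least 102 reads in every library.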
